A study of Mus musculus with 15 samples.

Results

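The 40 genes described here act in DNA replication and cell division and were taken from the count files by symbol, from a list chosen by function. Of these genes 20 serve DNA replication: the helicase genes Mcm2 to Mcm7 and Mcm10, the licensing genes Cdc6 and Cdt1, Ccne1, Ccne2, Pcna, Rrm1, Rrm2, Tyms, Gins2, Cdc45, Chaf1a, Uhrf1 and E2f1. The other 20 serve mitosis: Mki67, Top2a, Ccna2, Ccnb1, Ccnb2, Cdk1, Plk1, Aurka, Aurkb, Bub1, Bub1b, Cdc20, Cenpa, Cenpe, Cenpf, Kif11, Kif20a, Tpx2, Birc5 and Foxm1. All 40 were present among 30281 named genes, and all 40 passed the filter on low counts that left 17136 genes for testing.

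The study followed wounded skin of C57BL/6 mice through 5 times, with 3 libraries at each of day 0, day 1, day 3, day 5 and day 7, or 15 libraries in all. Every library, those of day 0 included, carries the wound stress in its labels, so the first time is called day 0 and not unwounded skin. Tissue was cleared of muscle and fat, and poly(A)-selecting libraries were sequenced on an Illumina HiSeq X-Ten. The sources used here do not give the age, sex or number of the animals or the size and site of the wound. Since separate animals are not stated, p-values speak only to the spread among these libraries, and that spread may be technical.

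A dividing cell first licenses its replication origins: Cdc6 and Cdt1 load the ring of Mcm2 to Mcm7, and cyclin E (Ccne1, Ccne2) with its kinase lets those origins fire. Mitosis follows under cyclins A and B with Cdk1, helped by the Polo and Aurora kinases, the spindle motors and the checkpoint proteins Bub1 and Bub1b. In healing skin, keratinocytes behind the wound edge, fibroblasts and endothelial cells are known to divide.

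Promoters of both gene sets are shown first, because the sets are known to be transcribed through different DNA elements: E2F factors for replication genes, and the CHR element with neighbouring NF-Y boxes for mitosis genes. RefSeq promoter windows (build GRCm38.p6, 250 bases before to 50 bases after the annotated start, 300 in all) were found for 32 of the 40 genes, with 19 windows for 17 replication genes and 15 windows for 15 mitosis genes. The search covered both strands for TTTCCCGC, TTTGGCGC and TTTCGCGC (E2F-type), TTTGAA and TTCGAA (CHR-type) and CCAAT (NF-Y box). TTTGGCGC and TTTCGCGC on opposite strands can share bases, as they do in Mcm6 and Mcm5, and a window was counted one time per kind. An E2F-type match lay in 36.8% of replication windows (7 of 19) and in 6.67% of mitosis windows (1 of 15, Cdk1), against 1.84% of all 32851 promoter windows. A CHR-type match lay in 80.0% of mitosis windows (12 of 15) and in 15.8% of replication windows (3 of 19), against 19.2% of all windows. CCAAT lay in 93.3% of mitosis windows and 73.7% of replication windows, against 37.4% of all windows. Among genes with an entry, the replication genes called most often below were Mcm6 and Mcm3. The mitosis genes with the smallest adjusted p against day 0 were Kif11 and, tied with Plk1 and taken by alphabet, Aurka. The windows of these 4 genes are printed. They run 5′ to 3′ on the gene's strand, with every match in capitals: Mcm6 at chr1:128359656-128359955 on the minus strand, Mcm3 at chr1:20820263-20820562 on the minus strand, Kif11 at chr19:37376132-37376431 on the plus strand and Aurka at chr2:172370521-172370820 on the minus strand.
Mcm6: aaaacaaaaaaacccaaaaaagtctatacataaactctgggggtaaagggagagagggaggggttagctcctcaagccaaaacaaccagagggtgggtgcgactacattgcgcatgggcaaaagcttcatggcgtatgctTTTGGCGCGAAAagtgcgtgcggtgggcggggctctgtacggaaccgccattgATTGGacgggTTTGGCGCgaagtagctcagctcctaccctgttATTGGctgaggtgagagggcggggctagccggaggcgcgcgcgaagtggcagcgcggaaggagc
Mcm3: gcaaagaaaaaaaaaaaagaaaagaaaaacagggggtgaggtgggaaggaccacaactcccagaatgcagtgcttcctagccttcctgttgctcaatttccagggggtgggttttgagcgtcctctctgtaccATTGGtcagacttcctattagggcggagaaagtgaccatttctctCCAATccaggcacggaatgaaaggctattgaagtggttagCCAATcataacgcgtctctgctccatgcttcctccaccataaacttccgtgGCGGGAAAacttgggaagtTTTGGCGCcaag
Kif11: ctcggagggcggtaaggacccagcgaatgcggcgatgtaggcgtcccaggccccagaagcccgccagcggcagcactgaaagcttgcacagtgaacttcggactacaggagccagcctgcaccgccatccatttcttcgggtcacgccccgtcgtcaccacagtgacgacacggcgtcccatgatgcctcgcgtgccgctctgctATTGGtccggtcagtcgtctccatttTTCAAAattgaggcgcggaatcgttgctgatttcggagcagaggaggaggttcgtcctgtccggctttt
Aurka: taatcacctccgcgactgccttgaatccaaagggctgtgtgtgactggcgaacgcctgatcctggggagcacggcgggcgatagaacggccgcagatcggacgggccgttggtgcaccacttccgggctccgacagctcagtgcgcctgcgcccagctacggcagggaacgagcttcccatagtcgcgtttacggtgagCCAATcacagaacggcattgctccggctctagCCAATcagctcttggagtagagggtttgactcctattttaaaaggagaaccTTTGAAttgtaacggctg
In the Mcm6 window the overlapping E2F-type pair begins 110 and 106 bases before the start and another TTTGGCGC begins 47 bases before it. The Mcm3 window holds both its E2F-type matches after the start, beginning at 19 and 38 bases. In Kif11 a CCAAT and a TTTGAA, both read on the opposite strand, begin 45 and 19 bases before the start. The Aurka window has 2 CCAAT boxes before the start and a TTTGAA after it. A match describes letters in the window, and binding was not measured.

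Expression is given as CPM (counts relative to the total of the library), scaled between libraries with edgeR's trimmed mean method (TMM), with replicates in the order 1, 2, 3. CPM is not divided by transcript length, so levels are compared between libraries and never between genes. Library totals ran from 38062562 to 60450396 estimated counts, and single genes of the list had from 120 to 9482 counts in a library. The common biological coefficient of variation was 30.9% over all genes tested, which is not the spread of this list. How much counting error adds to the spread was not worked out gene by gene. Basal keratinocyte markers (7 of 7 genes) summed to 2708 to 9691 CPM and fibroblast markers (6 of 6) to 24048 to 69238 CPM, so both cell types of skin were present. Skeletal muscle markers (5 of 5) summed to 2001 to 9133 CPM and adipocyte markers (4 of 4) to 121 to 551 CPM, although muscle and fat had been removed. In bulk skin, fewer dividing cells and less RNA per cell cannot be told apart. A gene was called where edgeR's quasi-likelihood test gave an adjusted p under 0.05 (Benjamini-Hochberg over all 17136 genes). Below, a gene is said to have risen or fallen only where it was called, and a gene not called may still differ.

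The group means of both gene sets were lowest at day 0, with the highest replication mean at day 1 and the highest mitosis mean at day 3. The mean log2 CPM of the 20 replication genes, relative to its day 0 mean, was 0.76 ± 0.25 at day 1, 0.70 ± 0.28 at day 3, 0.38 ± 0.21 at day 5 and 0.33 ± 0.42 at day 7 (SD, n = 3 each; day 0 SD 0.14). The same measure over the 20 mitosis genes was 0.45 ± 0.70 at day 1, 1.05 ± 0.20 at day 3, 0.73 ± 0.24 at day 5 and 0.43 ± 0.66 at day 7 (day 0 SD 0.12). These summaries describe the list and carry no test. With single libraries left out, the replication value ran from 0.65 to 0.89 at day 1 and from 0.54 to 0.79 at day 3. The order of these replication means is therefore not settled. By gene, all 20 mitosis genes had their highest mean at day 3, while the replication genes divided between day 1 (10 genes), day 3 (9 genes) and day 7 (Ccne2). The mean was lowest at day 0 for 39 of 40 genes, and the exception was E2f1, the transcription factor gene, whose lowest mean was at day 5.

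**Figure D1:**
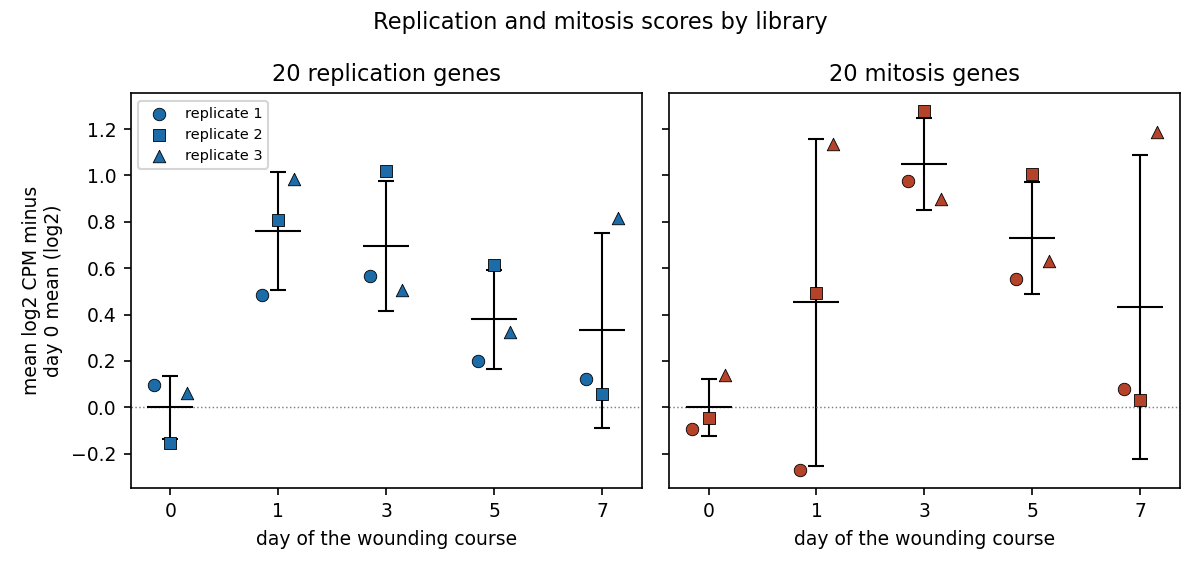
Mean log2 CPM of the 20 replication genes (left) and the 20 mitosis genes (right) in each library, minus the day 0 mean, against day of the course; bars are the mean and SD of 3 libraries. The mitosis points run from -0.27 to 1.14 at day 1 and from 0.03 to 1.19 at day 7, and lie closer together at day 3, from 0.90 to 1.28.

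Set against each other within a library, the mean balance of both sets was below its day 0 value at day 1 and above it at day 3 and day 5. The mitosis mean minus the replication mean, relative to day 0, was -0.76, -0.32 and 0.15 in the day 1 libraries, 0.41, 0.26 and 0.39 in the day 3 libraries, 0.35, 0.39 and 0.31 in the day 5 libraries, and -0.04, -0.03 and 0.37 in the day 7 libraries. The day 0 libraries stood at -0.19, 0.11 and 0.08. All day 3 and day 5 libraries were therefore above all day 0 libraries, whereas the day 1 and day 7 libraries overlapped them. With a narrower replication set of 10 genes (Mcm2 to Mcm7, Mcm10, Ccne1, Ccne2 and Cdc6) the group means of this difference were -0.41 at day 1, 0.28 at day 3, 0.33 at day 5 and 0.09 at day 7.

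**Figure D2:**
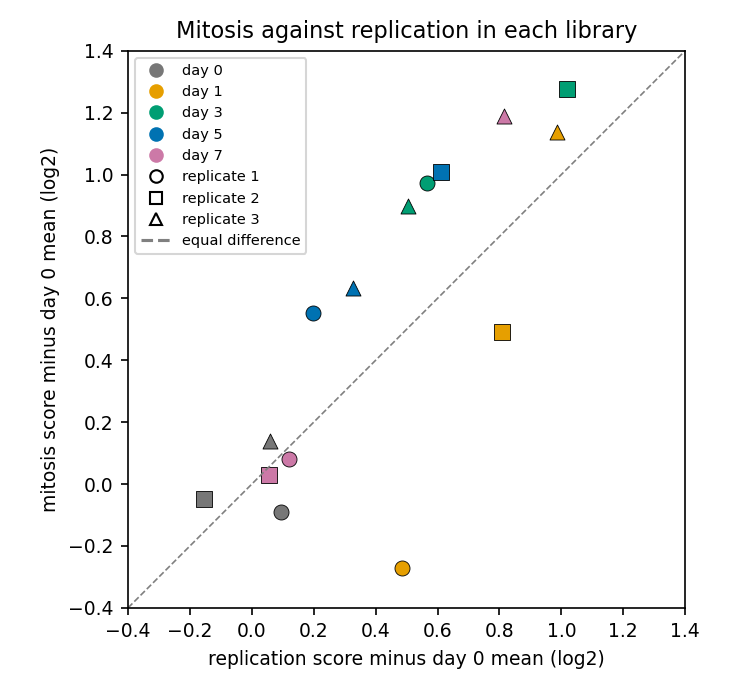
Mitosis against replication set in each of the 15 libraries (mean log2 CPM minus the day 0 mean on both axes, equal scales; colour is the day, marker shape the replicate, the dashed line marks equal differences). Day 1 replicate 1 lies far below the line at 0.49 on the replication axis and -0.27 on the mitosis axis, while the day 3 and day 5 libraries lie above it.

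At day 1 against day 0, 8 of the 40 genes rose and none fell, against 7.58% of all genes called, 4.22% higher and 3.36% lower. All 8 were replication genes: Mcm2, Mcm3, Mcm4, Mcm5, Mcm6, Ccne2, Pcna and Tyms. None of the 20 mitosis genes was called by edgeR or by DESeq2, which called 16.3% of all genes. With edgeR 4 mitosis genes had an unadjusted p under 0.05, against 14.2% of all genes with one and a higher later value. The median log2 fold change was 0.81 for the replication genes and 0.58 for the mitosis genes, against -0.0093 over all genes tested, and all 40 fold changes were above 0, as were 49% of those of all genes. Of the replication genes, 19 had every day 1 library above every day 0 library, the exception being E2f1, and of the mitosis genes none did, against 19.8% of all genes.

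The 8 included 5 subunits of the replicative helicase. Mcm4 had 48.2, 50.1 and 56.1 CPM in the day 1 libraries, against 34.8, 25.0 and 29.5 CPM in those of day 0. Its day 1 libraries lay close together and apart from day 0, and its log2 fold change was 0.79 (SE 0.15, adjusted p = 0.0157), the smallest adjusted p in the list. Mcm6 had 72.3, 87.3 and 93.1 CPM in the day 1 libraries, against 53.9, 38.4 and 46.8 CPM in those of day 0, a log2 fold change of 0.86 (SE 0.19, adjusted p = 0.0228). Mcm3 had 42.5, 48.4 and 52.1 CPM in the day 1 libraries, against 32.1, 21.0 and 27.2 CPM in those of day 0, a log2 fold change of 0.83 (SE 0.19, adjusted p = 0.0254). In both genes replicate 1 was the lowest day 1 library and replicate 2 the lowest day 0 library, with no overlap. Mcm5 had 42.7, 52.2 and 58.3 CPM in the day 1 libraries, against 29.4, 20.5 and 25.1 CPM in those of day 0, a 2.04-fold difference (adjusted p = 0.0468). Mcm2 had 37.0, 44.4 and 48.0 CPM in the day 1 libraries, against 27.3, 17.8 and 23.0 CPM in those of day 0, a 1.90-fold difference (adjusted p = 0.0491). The other 2 ring or helicase-linked genes were not called: Mcm7 gave 1.44-fold with adjusted p = 0.117, and Mcm10, which helps the helicase start, gave 1.87-fold with adjusted p = 0.126.

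The remaining 3 called genes act at the start of S phase or in it. Ccne2, a cyclin E, had 17.0, 22.9 and 23.3 CPM in the day 1 libraries, against 8.69, 10.4 and 10.8 CPM in those of day 0. Its lowest day 1 library was well above its highest day 0 library, and its log2 fold change of 1.08 (SE 0.29, adjusted p = 0.042) was the highest in the list. Pcna, the sliding clamp of the DNA polymerases, had 139.6, 160.2 and 171 CPM in the day 1 libraries, against 108, 89.6 and 101 CPM in those of day 0 (log2 fold change 0.66, SE 0.18, adjusted p = 0.0482). Tyms, the thymidylate synthase, had 26.5, 32.7 and 39.4 CPM in the day 1 libraries, against 21.2, 17.3 and 20.03 CPM in those of day 0 (log2 fold change 0.75, SE 0.19, adjusted p = 0.035). Among the replication genes that were not called, the largest values were those of Uhrf1, which helps to maintain DNA methylation, at 2.03-fold (adjusted p = 0.058), and Rrm2, a ribonucleotide reductase subunit, at 1.94-fold (adjusted p = 0.0724). Licensing factors Cdc6 and Cdt1 stood at 1.72-fold and 1.58-fold (adjusted p = 0.0619 and 0.0845). The smallest were Gins2, a helicase partner, at 1.32-fold, and E2f1 at 1.11-fold (adjusted p = 0.186 and 0.567).

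**Figure D3:**
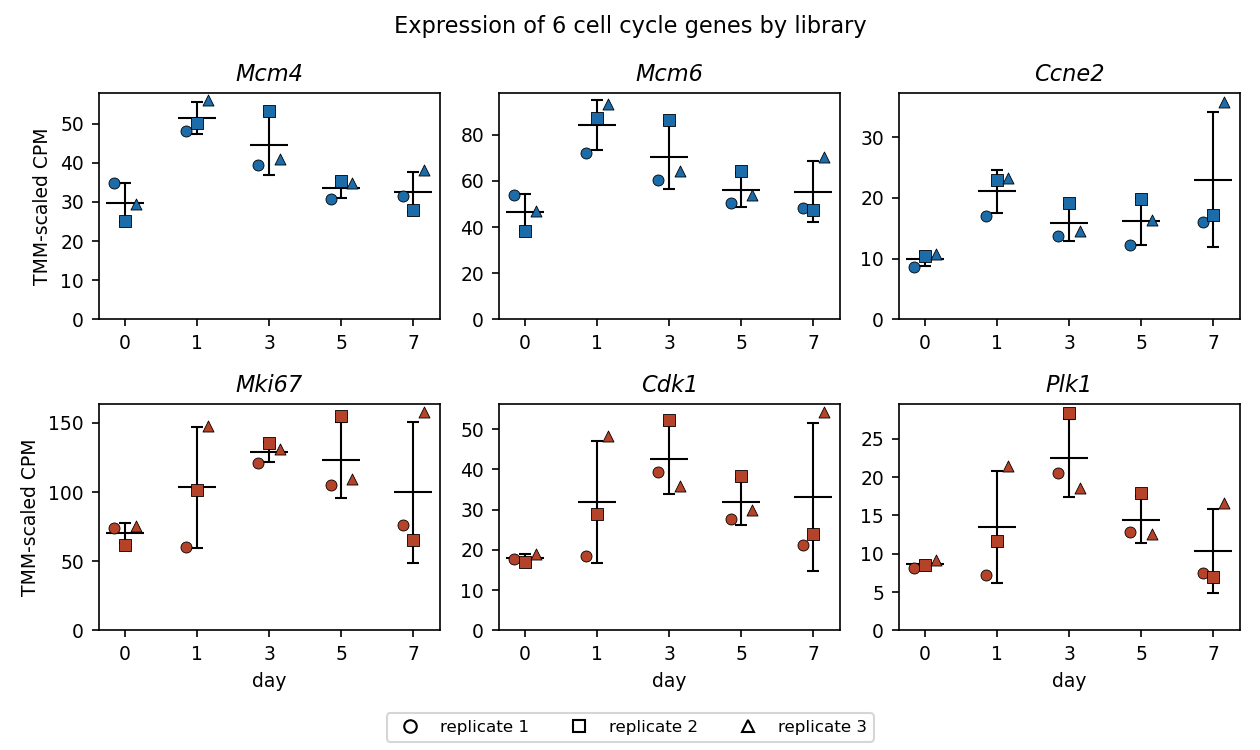
TMM-scaled CPM of 3 replication genes (Mcm4, Mcm6, Ccne2) and 3 mitosis genes (Mki67, Cdk1, Plk1) in each library against day, with the mean and SD of 3 libraries; axes start at 0. Mcm4 and Mcm6 are highest at day 1, Cdk1 and Plk1 have their highest mean at day 3, and the highest Ccne2 value is 35.8 CPM in day 7 replicate 3.

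The calls at day 1 depended on single libraries. The list gave 0 called genes without day 0 replicate 2, day 0 replicate 3, day 1 replicate 1 or day 1 replicate 3. Of all genes, 0.19%, 0.815%, 0.786% and 2.44% were called in those fits, in that order. Leaving out day 1 replicate 2 gave 1, with 1.79% of all genes called. Only the fit lacking day 0 replicate 1 came near the full count, with 7, where 13.8% of all genes were called. The count over all genes thus moved with that of the list, to 33 called without day 0 replicate 2 and 2411 without day 0 replicate 1. The log2 fold changes of the 8 genes stayed between 0.59 and 1.21 in these 6 fits. DESeq2 called 15 of the 40 genes, with 16.3% of all genes called, and edgeR without the filter on low counts called 4, with 4.15% of all genes called.

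The 3 day 1 libraries spread widely in the mitosis genes, none of which was called. Cdk1, the mitotic kinase, had 18.4, 28.8 and 48.3 CPM in the day 1 libraries, against 17.6, 17.1 and 19.0 CPM in those of day 0. Mki67, the proliferation antigen, had 60.6, 102 and 148 CPM in the day 1 libraries, against 74.0, 61.8 and 75.5 CPM in those of day 0. In both genes replicate 3 was the highest day 1 library and replicate 1 lay inside or under the day 0 range. Bub1, a spindle checkpoint kinase, had the highest fold of the mitosis set at 1.90 (7.33, 12.7 and 19.0 CPM in the day 1 libraries, against 6.77, 6.15 and 7.62 CPM in those of day 0; adjusted p = 0.148). Cenpa, the centromeric histone, had the lowest at 1.02 (10.9, 19.4 and 29.8 CPM in the day 1 libraries, against 17.9, 19.7 and 21.4 CPM in those of day 0; adjusted p = 0.969). The median SD of log2 CPM over the day 1 libraries was 0.70 for the mitosis genes and 0.25 for the replication genes, against 0.16 over all genes tested.

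Day 1 replicate 1 was the library in which both sets parted. In it 19 of 20 replication genes were above all day 0 libraries, and 0 of 20 mitosis genes were above and 15 below, where 34.0% of all genes were above and 34.9% below. In day 1 replicate 2 the numbers above were 20 replication and 19 mitosis genes, and in replicate 3 all 40 genes were above, against 33% and 33.2% of all genes in these libraries. Replicate 1 was the lowest of the 3 day 1 libraries for all 40 genes, where it was the lowest for 34.4% of all genes. The ratio of replicate 3 to replicate 1 had a median of 2.63 over the mitosis genes and 1.38 over the replication genes. Hair shaft and follicle genes (18 of 19 in the files, none at 0) summed to 27.1, 572 and 955 CPM in day 1 replicates 1, 2 and 3, and basal keratinocyte markers to 5838, 5132 and 9212 CPM. Their part in the spread was not tested.

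**Figure D4:**
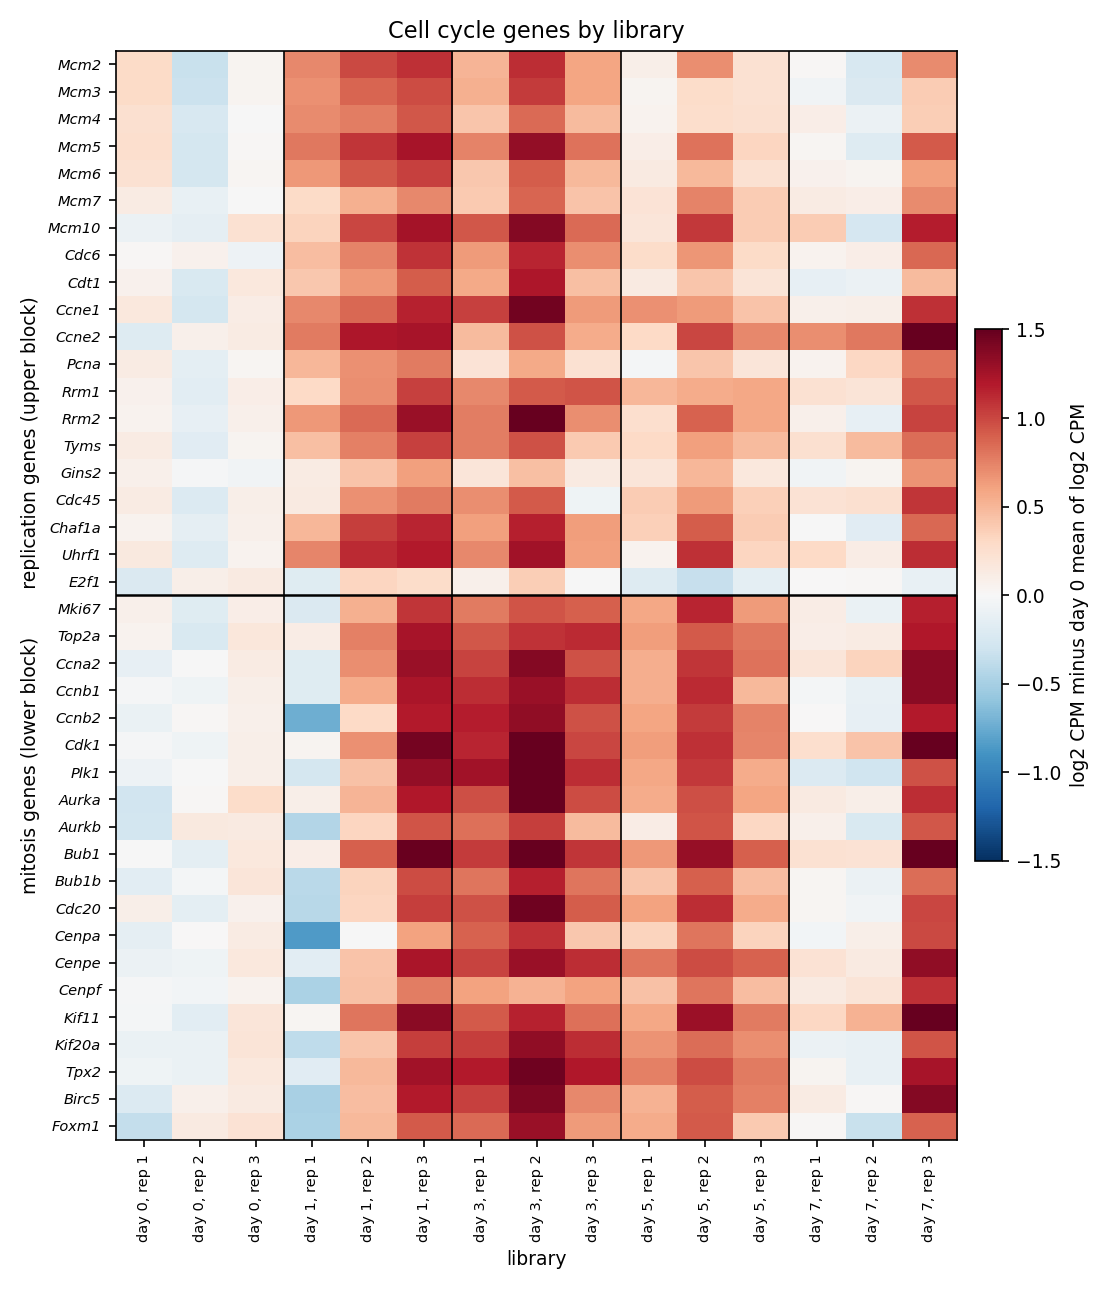
Log2 CPM of the 40 genes (rows; replication above, mitosis below the line) in the 15 libraries (columns), minus each gene's day 0 mean; red is higher, blue lower, and colours end at 1.5 in either direction. The mitosis block is mostly blue in day 1 replicate 1 and red or pale red in the day 3 and day 5 libraries, and day 7 replicate 3 is red beside 2 pale libraries.

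At day 3 against day 0 the mitosis genes were higher in value by a median log2 fold change of 1.13 and the replication genes by 0.73, but no gene of the list was called. The background here was also low, with 0.788% of all genes called and 0.595% called higher. Of the 40 genes, 34 had an unadjusted p under 0.05 with the later value higher, against 8.62% of all genes, and 38 had no overlap, against 13.1% of all genes. The smallest adjusted p was 0.0659, for Rrm1. DESeq2 called 20 of the 40 genes, 9 of replication and 11 of mitosis, with 5.5% of all genes called, and an edgeR fit of these 6 libraries alone called 16, 1 of replication and 15 of mitosis, with 1.23% of all genes called. Without day 0 replicate 1 the fit over all times called 2, with 3.61% of all genes called.

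Mitotic kinase genes and a kinase activator had some of the highest folds at day 3. Plk1, the Polo kinase, had 20.6, 28.3 and 18.6 CPM in the day 3 libraries, against 8.15, 8.53 and 9.11 CPM in those of day 0, which is 2.62-fold (log2 1.39, SE 0.39, adjusted p = 0.119). Every day 3 library of Plk1 was above every day 0 library, and replicate 2 was the highest. Cdk1 had 39.4, 52.2 and 35.9 CPM in the day 3 libraries, against 17.6, 17.1 and 19.0 CPM in those of day 0 (2.38-fold, adjusted p = 0.132). Aurka, the Aurora A kinase, had 13.2, 19.51 and 13.3 CPM in the day 3 libraries, against 5.52, 6.86 and 8.16 CPM in those of day 0 (2.24-fold, adjusted p = 0.119). Tpx2, which activates Aurora A on the spindle, had 41.0, 49.4 and 41.4 CPM in the day 3 libraries, against 17.2, 16.9 and 20.1 CPM in those of day 0 (2.43-fold, adjusted p = 0.119). All 4 genes showed no overlap, and day 3 replicate 2 was the highest library in each. The other Aurora kinase gene, Aurkb, stood lower at 1.72-fold (adjusted p = 0.317).

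Genes for mitotic cyclins, the checkpoint and the chromosomes also separated day 3 from day 0 without overlap. Ccna2, Ccnb1 and Ccnb2, the cyclins A and B, were at 2.18-fold, 2.25-fold and 2.23-fold at day 3 (adjusted p = 0.145, 0.168 and 0.195). The Ccnb2 value is uncertain to the extent that the pseudogene Ccnb2-ps had 35 to 99 counts in a library, up to 16.8% of Ccnb2, and reads may be shared between them. Bub1 was at 2.34-fold, Cdc20, which activates the anaphase-promoting complex, at 2.18-fold, and Cenpe, a kinetochore motor, at 2.20-fold (adjusted p = 0.152, 0.146 and 0.133). Kif20a, a cytokinesis kinesin, had 32.5, 39.8 and 34.1 CPM in the day 3 libraries, against 14.8, 14.8 and 18.1 CPM in those of day 0 (2.23-fold, adjusted p = 0.119). Its 3 day 3 libraries were close to each other and well above day 0. Mki67 had 121, 135 and 131 CPM in the day 3 libraries, against 74.0, 61.8 and 75.5 CPM in those of day 0 (1.83-fold, adjusted p = 0.226), and Top2a, the DNA topoisomerase of dividing cells, had 101, 113 and 116 CPM, against 55.3, 45.6 and 60.1 CPM (2.05-fold, adjusted p = 0.127). The lowest of the mitosis set was Cenpf, a kinetochore protein, at 1.49-fold (adjusted p = 0.356). Foxm1, a transcription factor of mitosis genes, was at 1.91-fold (adjusted p = 0.228).

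Of the replication genes at day 3, Ccne1, the other cyclin E, and Mcm10 had the highest folds at 2.09 each (adjusted p = 0.1 and 0.169), followed by Rrm2 at 2.06 (adjusted p = 0.131). Rrm1, the large subunit of ribonucleotide reductase, had 80.8, 92.6 and 94.2 CPM in the day 3 libraries, against 51.1, 43.6 and 52.2 CPM in those of day 0 (1.82-fold). Its groups lay far apart and its adjusted p of 0.0659 still missed the threshold. Pcna and Gins2 were at log2 fold changes of 0.34 and 0.26 (adjusted p = 0.402 and 0.531), and E2f1 again at 1.11-fold.

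From one sampled time to the next the list gave no call with edgeR or with DESeq2. Of all genes, DESeq2 called 2.71% at day 3 against day 1 and 3.03% at day 5 against day 3. At day 7 against day 5 it called 0.881%. At day 3 against day 1, with 0.00584% of all genes called, the mitosis genes had a median log2 fold change of 0.52 with all 20 above 0, and the replication genes one of -0.05 with 9 above and 11 below 0, where 49% of all genes were above 0. Cenpa gave the only unadjusted p under 0.05, where 6.49% of all genes had one with the later value higher. It had 36.1, 41.9 and 26.0 CPM in the day 3 libraries, against 10.9, 19.4 and 29.8 CPM in those of day 1 (log2 fold change 0.79, SE 0.34, adjusted p = 0.354). Ccne2 had the lowest log2 fold change, -0.41, with 13.8, 19.2 and 14.6 CPM in the day 3 libraries, against 17.0, 22.9 and 23.3 CPM in those of day 1 (adjusted p = 0.588). Both pairs of groups overlapped. No gene of the list separated day 3 from day 1 without overlap, where 11.6% of all genes did with day 3 higher and 13.2% with day 3 lower.

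Values were lower at day 5 than at day 3 in 38 of 40 genes, with no call at adjusted p under 0.05 and 0.0233% of all genes called. An unadjusted p under 0.05 with the later value lower was reached by 4 genes, against 7.95% of all genes. Over all genes 50.3% were higher at day 5 in value. The median log2 fold change of day 5 against day 3 was -0.36 for replication and -0.32 for mitosis genes. Every day 5 library was below every day 3 library for 11 genes, against 11.9% of all genes: Mcm3, Mcm4, Cdt1, Rrm1, E2f1, Plk1, Aurka, Tpx2, Kif20a, Top2a and Cenpe. Mcm3 had 27.1, 31.9 and 30.8 CPM in the day 5 libraries, against 38.1, 54.4 and 39.8 CPM in those of day 3 (log2 fold change -0.56, SE 0.19, adjusted p = 0.246). Plk1 had the lowest log2 fold change of the list at -0.64 (12.8, 17.96 and 12.6 CPM in the day 5 libraries, against 20.6, 28.3 and 18.6 CPM in those of day 3; adjusted p = 0.464). At day 7 against day 5, where again 0.00584% of all genes were called, 32 of 40 fold changes were below 0, where 50.5% of all genes were above 0. None was called and none had an unadjusted p under 0.05, which 4.76% of all genes had with a higher and 4.42% with a lower later value. E2f1 was the one gene without overlap there, higher at day 7 as were 5.68% of all genes, at 20.9, 21.2 and 19.4 CPM in the day 7 libraries, against 18.3, 16.4 and 18.9 CPM in those of day 5 (adjusted p = 0.754).

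At day 5 against day 0 the median fold change of the mitosis genes was again the larger. None of the 40 genes was called by edgeR, which called 0.502% of all genes, 0.21% higher. DESeq2 also called none of the 40, although it called 6.77% of all genes. The median log2 fold change was 0.76 over mitosis genes and 0.44 over replication genes. Groups did not overlap for 19 mitosis and 10 replication genes, against 12.3% of all genes, and 14 genes had an unadjusted p under 0.05, against 8.96% of all genes. Bub1 was highest at 1.96-fold (10.7, 16.9 and 12.7 CPM in the day 5 libraries, against 6.77, 6.15 and 7.62 CPM in those of day 0; adjusted p = 0.201). Kif11, the motor that separates the spindle poles, followed at 1.87-fold (29.1, 47.2 and 33.2 CPM, against 19.0, 17.4 and 22.1 CPM; adjusted p = 0.201), and Cenpe at 1.85-fold (adjusted p = 0.186). In Bub1 and Kif11 replicate 2 was the highest day 5 library and all 3 were above day 0. The helicase genes called at day 1 were nearer to day 0: Mcm3 was at 1.12-fold, Mcm4 at 1.13-fold and Mcm6 at 1.21-fold, with overlapping groups. E2f1 was at 0.85-fold (adjusted p = 0.387).

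At day 7 against day 0 Ccne2 was the only gene of the list that was called, where 7.05% of all genes were called. That is 1 of 40 genes, no larger a share than the 3.1% of all genes called higher. Ccne2 had 16.0, 17.1 and 35.8 CPM in the day 7 libraries, against 8.69, 10.4 and 10.8 CPM in those of day 0 (log2 fold change 1.21, SE 0.29, adjusted p = 0.0294). All 3 day 7 libraries were above day 0, and replicate 3 was the highest by far. The call was lost without that library (log2 fold change 0.75, adjusted p = 0.0998) and without any one of the day 0 libraries. Without day 7 replicate 1 the list gave 2 calls, with 11.9% of all genes called. The median log2 fold change was 0.51 for mitosis genes and 0.36 for replication genes, and 9 of 40 genes had no overlap, against 13.9% of all genes. Those included the replication genes Rrm1, Tyms and Cdc45, a helicase partner, and the mitosis genes Ccna2, Cdk1, Bub1, Cenpf and Kif11.

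The day 7 means rested on replicate 3. In that library 39 of 40 genes were above all day 0 libraries, against 15 in replicate 1 and 11 in replicate 2. The shares over all genes were 39.1% in replicate 3, 28.1% in replicate 1 and 31% in replicate 2, so the 27.5% of the list in replicate 2 was below that of all genes. Cdk1 had 21.2, 24.0 and 54.2 CPM in the day 7 libraries, against 17.6, 17.1 and 19.0 CPM in those of day 0. Kif11 had 24.0, 27.8 and 61.2 CPM in the day 7 libraries, against 19.0, 17.4 and 22.1 CPM in those of day 0. In both, replicates 1 and 2 were just above the day 0 range and replicate 3 was far above. Bub1b, the checkpoint kinase BubR1, had 15.4, 14.2 and 27.0 CPM in the day 7 libraries, against 13.6, 14.8 and 17.2 CPM in those of day 0, so replicates 1 and 2 lay within the day 0 range. Replicate 3 divided by the mean of the other 2 libraries had a median of 2.18 over the mitosis genes (1.83 to 2.69) and 1.68 over the replication genes (0.92 to 2.16), with E2f1 the lowest. Without replicate 3 the mean log2 CPM at day 7 relative to day 0 was 0.06 for the mitosis set, against 0.43 with it, and 0.10 for the replication set, against 0.33 with it.

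Hair genes stood apart in the same library. Hair shaft and follicle genes summed to 17714 CPM in day 7 replicate 3 and 14337 CPM in day 5 replicate 2, against 25.1 to 1622 CPM in the other 13 libraries. Day 5 replicate 2 was also the highest day 5 library for 37 of the 40 genes, where it was the highest for 39.4% of all genes. The hair follicle holds dividing matrix cells, and the part of such cells in these values was not tested. Leaving out both libraries left no gene of the list called at day 7, with 4.54% of all genes called. Ccne2 then had a log2 fold change of 0.74 (adjusted p = 0.0517). Basal keratinocyte markers had medians of 2942, 5838, 8226, 6284 and 4366 CPM at day 0, 1, 3, 5 and 7, and wound-edge keratins (Krt6a, Krt6b, Krt16, Krt17) of 486, 3379, 6672, 3469 and 1830 CPM, both highest at day 3 like the mitosis genes. Endothelial markers (6 of 6 genes, none at 0) were also highest at day 3, with medians of 307, 399, 560, 475 and 257 CPM over the same times and no overlap between day 3 (466 to 622 CPM) and day 0 (292 to 322 CPM), but day 5 replicate 2 was the lowest day 5 library, at 251 CPM. The mitochondrial share of counts lay between 5.29% and 6.30% in day 0 libraries, 6.98% and 7.53% in day 1 libraries, 5.34% and 6.30% in day 3 libraries, 7.42% and 8.70% in day 5 libraries, and 8.09% and 9.44% in day 7 libraries. Neutrophil markers were highest at day 1, at 79.4, 1111, 646, 172 and 48.8 CPM over the same times (6 of 6 genes, with 1 gene at 0 in 2 libraries). Day 0 replicate 1 had 2206 CPM of wound-edge keratins, against 364 and 486 CPM in the other 2 day 0 libraries. The part of these cell types and of the mitochondrial share in the results was not tested.

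**Figure D5:**
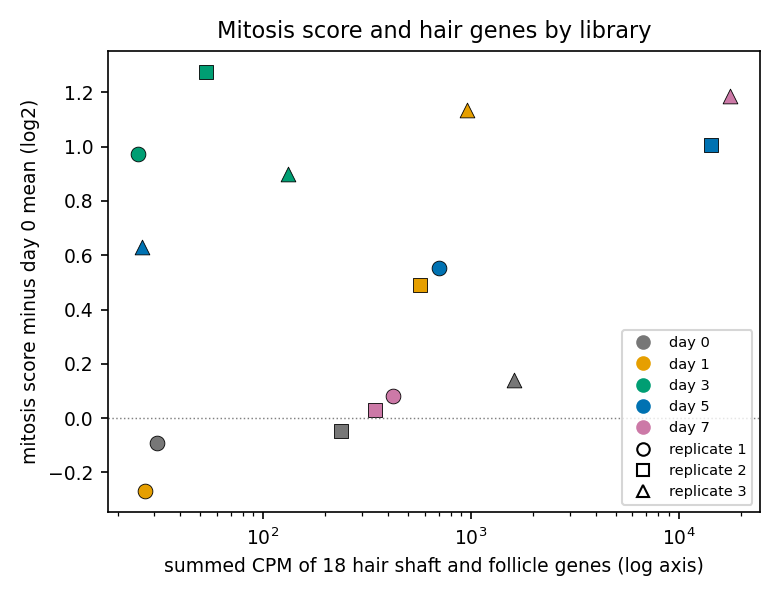
Mean log2 CPM of the 20 mitosis genes minus the day 0 mean (vertical axis) against the summed CPM of 18 hair shaft and follicle genes (horizontal log axis) in each library; colour is the day and marker shape the replicate. Day 5 replicate 2 and day 7 replicate 3 lie alone at the right, at 14337 and 17714 CPM, with mitosis values of 1.01 and 1.19, and the 3 day 3 libraries reach 0.90 to 1.28 at 25.1 to 133 CPM.

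Tested over all times together, 3 of the 40 genes were called, a smaller share than the 13.9% of all genes. They were Mcm4 (adjusted p = 0.016), Mcm3 (adjusted p = 0.0199) and Mcm6 (adjusted p = 0.0424), all helicase subunits. The count was sensitive to day 7 replicate 3, without which 22 genes were called, 14 of replication and 8 of mitosis, with 16.7% of all genes called. Without day 1 replicate 2 only 1 was called, with 6.9% of all genes called.

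A further 171 genes of the same pathways, in 9 lists and all tested, were read at the same threshold. At day 1 against day 0, 16 of them rose and none fell, where 4.22% of all genes rose. Of 19 origin licensing and firing genes, Orc2, Topbp1 and Cdc7 rose. Cdc7, the kinase that fires origins, had 6.65, 8.11 and 7.70 CPM in the day 1 libraries, against 5.11, 4.61 and 5.28 CPM in those of day 0 (1.497-fold, adjusted p = 0.0252). Of 29 polymerase and fork genes, Clspn, Lig1, Pola1 and Prim2 rose. Clspn, claspin of the replication checkpoint, had the highest fold of these at 2.19 (13.1 ± 3.49 CPM in the day 1 libraries, against 5.98 ± 1.06 CPM in those of day 0; SD, n = 3 each; adjusted p = 0.0395), and DNA ligase Lig1 stood at 1.72-fold (adjusted p = 0.0442). Of 13 nucleotide synthesis genes Mthfd1 and Umps rose. Of 16 genes for kinase inhibitors and the Rb family, the growth-restraining genes Cdkn2d, Btg1 and Btg2 rose at 1.44-fold, 1.43-fold and 1.44-fold (adjusted p = 0.0266, 0.028 and 0.0351).

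In the mitotic lists at day 1 the condensin and cohesin list had 3 calls, although its median log2 fold change of 0.33 was the lowest of these 4 lists. Ncapg2, a condensin II subunit, had 44.3 ± 11.02 CPM in the day 1 libraries, against 21.2 ± 2.05 CPM in those of day 0 (2.09-fold, adjusted p = 0.0148), and Smc2, a core condensin subunit, was at 1.91-fold (adjusted p = 0.0192). Stag1, of cohesin, rose 1.25-fold (adjusted p = 0.0351), so 3 of 19 condensin and cohesin genes rose. Of 29 kinetochore and spindle checkpoint genes only Zwint was called, at 1.395-fold (adjusted p = 0.035). The median log2 fold change of that list, 0.56, was nevertheless the highest of these 4 lists. The lowest adjusted p was 0.104 (Kif20b) among 16 mitotic kinesin and cytokinesis genes, 0.0716 (Mastl) among 19 mitotic entry and exit genes and 0.101 (Myc) among 11 genes for G1 cyclins and kinases.

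At day 3 against day 0, Ncapg2 was the only one of the 171 genes called (0.585%, near the 0.595% of all genes that rose), with 44.4 ± 6.46 CPM in the day 3 libraries, against 21.2 ± 2.05 CPM in those of day 0 (2.09-fold, adjusted p = 0.0393). The median log2 fold changes at day 3 were 0.87 for the kinesin and cytokinesis list, 0.77 for the kinetochore list and 0.65 for the entry and exit list, and 0.39 for the licensing list, 0.34 for the fork list and 0.23 for the nucleotide list. At day 1 the same lists stood at 0.44, 0.56 and 0.37, and at 0.52, 0.46 and 0.44. At day 5 the lowest adjusted p among the 171 genes was 0.0797. At day 7 against day 0, 7 rose, which is 4.09% of the 171, near the 3.1% of all genes that rose: Orc4, Orc5 and Cdc7 of the licensing list, Cdkn1c and Btg1 of the inhibitor list, and Smc3 and Stag2 of cohesin. Cdkn1c, the inhibitor p57, had 56.3, 53.5 and 41.15 CPM in the day 7 libraries, against 13.9, 25.0 and 29.4 CPM in those of day 0 (2.21-fold, adjusted p = 0.0293). Btg1 had 202, 252 and 291.5 CPM in the day 7 libraries, against 149, 145 and 138 CPM in those of day 0 (1.72-fold, adjusted p = 0.00886). Groups did not overlap in either gene, and for Cdkn1c day 7 replicate 3 was the lowest, not the highest, of its time. Dck, deoxycytidine kinase, was the one gene that fell, where 3.94% of all genes did, with 23.05, 19.9 and 28.9 CPM in the day 7 libraries, against 38.3, 33.55 and 34.9 CPM in those of day 0 (0.67-fold, adjusted p = 0.0493). All comparisons with day 0 share the same 3 day 0 libraries, so their results are not independent of each other.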

How the data were processed

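RNA of 15 wounded-skin libraries was measured, 3 at each of 5 times, grouped by the time in their labels. Each library came with 1 table of deposited estimated counts by gene symbol, for which the submitters' processing notes name kallisto 0.43. Its index, the genome build, the annotation and how transcripts were summed to genes are not given in any source used here. The deposited estimated counts were whole numbers and rounding left them as they were. Each file had 30307 rows, of which 26 held calendar dates in place of symbols (0.155% to 0.179% of counts) and were left out. Reads that match several genes are shared among them in such counting, which bears on Ccnb2.

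Tests used edgeR 4.0.16 with limma 3.58.1 in R 4.3.3: TMM scaling, the expression filter with a minimum count of 10, and 1 robust quasi-likelihood fit of 5 groups over 15 libraries. Contrasts are two-sided, the test over all times has no direction, and p-values were adjusted by Benjamini-Hochberg over 17136 genes. List summaries are means of log2 CPM with a prior count of 2. Alternatives were DESeq2 1.42.0, its size factors in edgeR, no filter, a fit of 2 times only, a replicate block, leaving out each library, and leaving out both libraries rich in hair genes. The procedure was run on simulated counts, with genes drawn independently and differences added at day 3 only. That run does not show how often differences like those of this list would be missed. Library totals were 38062562 to 60450396 estimated counts. Replicates were distinct (highest correlation of log counts between libraries 0.992).

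Deviations from group means correlated above 0 between same-numbered libraries of day 7 and day 0 in all 3 pairs (0.144, 0.131 and 0.406). The same held for day 1 and day 0 (0.392, 0.0688 and 0.414), and in no other comparison were all pairs above 0. No label says what a number marks. With the block, the day 7 count stayed at 1 (4.8% of all genes called), and the day 1 count fell from 8 to 5 (5.03%).

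Any of the 40 genes could be named. In each comparison those called came first, then the extremes of each gene set, and per pathway list up to 4 called genes or, failing that, up to 2 with the smallest p. The genes and lists were chosen with earlier results of these data known, and which of the allowed genes to describe was chosen after their values were seen. Promoter sequences came from RefSeq (GRCm38.p6).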

Additional observations from a re-analysis of the deposited data

How the results depend on the processing

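Brackets here give the share of all genes called in the same fits. At day 1 against day 0 the 8 called genes (7.58%) became 15 with DESeq2 (16.3%) and 4 without the filter (4.15%). The replicate block gave 5 (5.03%), and leaving out single libraries gave 0 to 7 (0.19% to 13.8%). At day 3 against day 0 the count of 0 (0.788%) became 20 with DESeq2 (5.5%) and 16 when both times were fitted alone (1.23%). With a library left out it was 0 to 2 (0% to 3.61%). At day 7 against day 0 the 1 call (7.05%) was lost when both times were fitted alone (0.395%) and without both hair-rich libraries (4.54%). The range with a library left out was 0 to 2 (1.6% to 11.9%). Over all times the 3 calls (13.9%) became 18 with DESeq2 (34.2%) and 25 without both hair-rich libraries (22.1%). With a library left out they became 1 to 22 (6.74% to 17.1%). The mitosis minus replication difference ran from 0.26 to 0.41 at both day 3 and day 5 when single libraries were left out. The mitosis mean at day 1 relative to day 0 was 0.11 without day 1 replicate 3 and 0.81 without day 1 replicate 1. The cause was not tested.

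All 20 replication genes kept fold changes above 0 at day 1 and day 3, and all 20 mitosis genes at day 3 and day 5, in every fit run. For the mitosis genes at day 1 the fewest was 16, without day 1 replicate 3, and for the replication genes at day 5 it was 19. At day 7 as few as 12 replication and 11 mitosis genes stayed above 0. The fits share most of their libraries, so they are not independent of each other. Correlations of deviations between same-numbered libraries ran from -0.729 to 0.414. All 3 pairs were above 0 for day 1 and for day 7 against day 0, and in no other comparison. Whether the numbers pair the samples is not known. With the block the counts that were 0 stayed at 0, and over all times 4 were called, with 9.75% of all genes. No fit on counts thinned to equal depth was run. The 40 genes had at least 120 counts in each library, and day 0 replicate 2, the shallowest of its time at 39536576 counts, was the lowest day 0 library for 26 of them, against 29.1% of all genes.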
